A study of Mus musculus with 16 samples.

Results

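The 10 genes S100a8, S100a9, Retnlg, Ngp, Camp, Ltf, Mmp8, Mmp9, Lcn2 and Csf3r encode granule, cytosolic and surface proteins of neutrophils. They were taken by symbol from the array annotation, where each has 1 probe set, and are 10 of the 19572 probe sets with a gene symbol. RNA of cells sorted from mouse olfactory mucosa was measured on Clariom S arrays, on which each probe set reports 1 gene as a log2 signal. The 24 mice, of both sexes and aged 7 to 12 weeks, all carried the S100a5-tauGFP reporter, a fluorescent protein that marks olfactory sensory neurons by the activity-dependent gene S100a5. Each mouse spent 40 h alone in a chamber flushed at 3.1 L/min; after the first 26 h either odor or filtered air, the vehicle, was pulsed for 10 s every 20 min. Each of 8 pools of 3 mice gave 1 GFP+ and 1 GFP- sample, so there were 4 groups of 4 arrays: GFP+ and GFP- cells of odor pools, and GFP+ and GFP- cells of vehicle pools. Sample labels name the odor 1-pentanethiol and the design text names bourgeonal; the sample labels are followed. The GFP- samples hold every sorted cell without reporter signal, so neurons that did not turn it on and all other cell types of the mucosa preparation are together in them. In such bulk samples, fewer cells of a type and less RNA per cell cannot be told apart.

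Neutrophils are short-lived phagocytes made in the bone marrow, which carry antimicrobial and matrix-degrading proteins in granules that form in sequence as the cells mature. Azurophil granules, with myeloperoxidase and elastase, are made first, then the specific granules with lactoferrin and cathelicidin, and then the gelatinase granules. Transcription of granule genes follows this order under C/EBP factors and PU.1, and Csf3r, the receptor for granulocyte colony-stimulating factor, sustains the lineage. In the olfactory mucosa, neutrophils are known from the blood vessels and lamina propria and from infected or damaged epithelium.

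Transcripts of mature neurons were strong in both fractions. Omp, the olfactory marker protein, had 18.35 in GFP+ and 18.32 in GFP- cells of odor pools and 18.32 in GFP+ and 18.27 in GFP- cells of vehicle pools. These levels lie near the highest value of the table, 18.85, which limits what their likeness shows. The level of S100a5 itself in GFP+ cells exceeded that in GFP- cells by 0.99 ± 0.12 (log2, SE) in odor pools and by 0.87 ± 0.12 in vehicle pools (limma adjusted p = 7.79e-06 and 3.51e-05, n = 4 arrays a group). The median of the 5222 negative control entries, taken as nonspecific signal, was 5.99 to 6.12 on GFP- arrays. It was higher on every GFP+ array, at 7.28 for vehicle pool 2, which stands apart from the rest, and 6.22 to 6.48 for the others. The median of the tested probe sets went the other way, with 7.71 to 7.78 on GFP- and 7.38 to 7.45 on GFP+ arrays.

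All 10 genes were lower in GFP+ than in GFP- cells, in odor pools and in vehicle pools, and in neither did any GFP+ array reach the level of a GFP- array. Fitted differences ran from -8.44 (Lcn2) to -5.45 (Csf3r) in odor pools and from -8.45 (Lcn2) to -5.76 (Csf3r) in vehicle pools, as log2 differences between group means. By limma with Benjamini-Hochberg adjustment over the 22206 probe sets tested, 10 of 10 passed an adjusted p of 0.05 as lower in odor pools, where 11.9% of all probe sets did, and 10 of 10 in vehicle pools, where 11.8% did. As higher, 11.3% of all probe sets passed in odor pools and 9.34% in vehicle pools, and 0 of the 10 genes. Over all probe sets, 12.3% in odor pools and 12% in vehicle pools had GFP+ arrays that lay wholly below the GFP- arrays. The median difference of the 10 genes was -7.66 in odor pools and -7.86 in vehicle pools, against 0.13 and 0.11 over all probe sets. Without both arrays of vehicle pool 2, the median in vehicle pools was -7.74 and 10 of 10 genes still passed.

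Promoters of Lcn2, Retnlg and Ngp are shown because these genes had the 3 largest fitted differences of the 10 genes in vehicle pools. Each runs from 250 bases before to 50 bases after the gene's start, 5′ to 3′ on the gene's strand (RefSeq, GRCm38.p6). Capitals mark matches on either strand to short cores of the C/EBP factors, TTNNGNAA, and of PU.1, GAGGAA.
Lcn2, chr2:32387690-32387989, minus strand: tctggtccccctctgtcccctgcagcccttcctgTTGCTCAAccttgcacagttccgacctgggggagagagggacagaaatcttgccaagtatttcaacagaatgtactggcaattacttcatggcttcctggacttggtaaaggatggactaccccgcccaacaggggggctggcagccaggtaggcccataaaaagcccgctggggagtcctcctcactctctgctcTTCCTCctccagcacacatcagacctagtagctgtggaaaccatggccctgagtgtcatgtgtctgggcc
Retnlg, chr16:48872358-48872657, plus strand: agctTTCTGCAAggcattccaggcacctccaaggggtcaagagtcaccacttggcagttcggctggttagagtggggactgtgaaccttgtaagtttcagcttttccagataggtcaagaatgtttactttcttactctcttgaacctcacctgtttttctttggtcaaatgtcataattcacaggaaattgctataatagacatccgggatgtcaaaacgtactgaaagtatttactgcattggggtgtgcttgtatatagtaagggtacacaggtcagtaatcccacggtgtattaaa
Ngp, chr9:110419558-110419857, plus strand: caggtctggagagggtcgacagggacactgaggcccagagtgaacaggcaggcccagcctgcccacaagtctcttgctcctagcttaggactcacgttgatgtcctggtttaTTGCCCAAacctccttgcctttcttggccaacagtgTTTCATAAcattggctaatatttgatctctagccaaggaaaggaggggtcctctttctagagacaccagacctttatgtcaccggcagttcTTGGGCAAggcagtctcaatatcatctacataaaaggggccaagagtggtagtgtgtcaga

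Of the 10 genes, 9 were found in the promoter table by symbol, and Mmp9 is named only. A C/EBP core was in 7 of these 9 promoters, against 40.7% of all 32851 promoters of that length. A PU.1 core was in 5 of 9, against 28.3%, and both cores were in 4 of 9, against 11.8%. Ngp held 3 C/EBP matches, Retnlg 1, and Lcn2 1 match of each core, while the Camp window held neither; matches of the 2 cores did not overlap in any of the 9. Such matches describe letters of the window and were not tested as binding sites. S100a8 and S100a9 are neighbours on chromosome 3 with 0 protein-coding genes between them. Camp, Ngp, Ltf and Mmp8 all lie on chromosome 9 but are not neighbours. There, 8 protein-coding genes lie between Camp and Ngp, 20 between Ngp and Ltf, and 1020 between Mmp8 and Camp.

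S100a8 and S100a9 encode the calcium-binding subunits of calprotectin, which fills the neutrophil cytosol. In odor pools 1 to 4, S100a8 read 6.69, 7.35, 8.04 and 8.59 in GFP+ cells, against 15.08, 15.97, 15.55 and 16.11 in GFP- cells. In vehicle pools 1 to 4 it read 8.56, 7.72, 7.56 and 7.12 in GFP+ cells, against 15.64, 16.15, 15.81 and 15.66 in GFP- cells. The GFP+ arrays were all far below the GFP- arrays, and odor and vehicle arrays overlapped within each fraction. The GFP+ minus GFP- difference of S100a8 was -8.01 ± 0.36 in odor pools and -8.08 ± 0.36 in vehicle pools (SE, n = 4 arrays a group, limma adjusted p = 9.18e-11 and 7.28e-11). S100a9 had 7.67, 7.52, 8.68 and 9.30 in GFP+ cells of odor pools, against 15.29, 16.54, 16.12 and 16.45 in GFP- cells. In vehicle pools its values were 8.34, 8.51, 8.97 and 7.29 in GFP+ cells, against 15.91, 16.56, 16.15 and 16.18 in GFP- cells. The pattern was like that of its neighbour gene, with the lowest GFP- value in pool 1 of either stimulus. Its differences were -7.81 ± 0.39 in odor pools and -7.92 ± 0.39 in vehicle pools (SE, limma adjusted p = 2.70e-10 and 2.15e-10).

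Retnlg encodes resistin-like gamma, a small secreted protein of mouse myeloid cells. It read 7.43, 8.31, 7.58 and 8.87 in GFP+ cells of odor pools, against 15.62, 16.88, 16.50 and 16.89 in GFP- cells. Its vehicle pools gave 6.97, 9.67, 7.99 and 7.36 in GFP+ cells, against 15.76, 16.87, 16.29 and 16.66 in GFP- cells. Its highest GFP+ value was on the array of vehicle pool 2, the one with the raised negative controls. The differences were -8.42 ± 0.48 in odor pools and -8.40 ± 0.48 in vehicle pools (SE, limma adjusted p = 1.11e-09 and 1.18e-09), and the second became -8.96 without that GFP+ array.

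Ngp, Camp, Ltf and Lcn2 encode proteins of the specific granules. Ngp, neutrophilic granule protein, read 8.06, 8.94, 9.28 and 10.55 in GFP+ cells of odor pools, against 16.95, 17.69, 17.50 and 17.75 in GFP- cells. In the vehicle pools, values were 9.46, 9.10, 9.87 and 8.22 in GFP+ cells, against 17.38, 17.71, 17.38 and 17.70 in GFP- cells. Its GFP+ value was highest in odor pool 4 and its GFP- values varied little. Lcn2, lipocalin 2, which binds bacterial siderophores, read 8.09, 7.80, 8.87 and 10.57 in GFP+ cells of odor pools, against 16.80, 17.41, 17.36 and 17.51 in GFP- cells. Vehicle pools 1 to 4 had 9.02, 9.49, 9.18 and 7.91 in GFP+ cells, against 17.21, 17.49, 17.24 and 17.44 in GFP- cells. Odor pool 4 again had the highest GFP+ value, and Ngp and Lcn2 on that array were the only 2 of the 10 genes to exceed the 95th percentile of the negative controls of a GFP+ array, 10.29 there. The differences of Ngp were -8.26 ± 0.40 in odor pools and -8.38 ± 0.40 in vehicle pools, and those of Lcn2 were -8.44 ± 0.45 and -8.45 ± 0.45 (SE, highest limma adjusted p 5.45e-10). From these means Lcn2 was 346-fold lower in GFP+ cells of odor pools and 349-fold lower in those of vehicle pools. Its GFP+ values were under the 95th percentile of the negative controls on 7 of 8 arrays and its GFP- values lay near the top of the scale, which limits how exact these folds are.

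Ltf, lactoferrin, an iron-binding protein, read 6.48, 6.40, 6.35 and 7.93 in GFP+ cells of odor pools, against 13.06, 14.74, 14.04 and 14.54 in GFP- cells. Its vehicle pools gave 7.46, 7.38, 7.09 and 5.91 in GFP+ cells, against 13.73, 14.68, 14.01 and 14.17 in GFP- cells. Odor pool 4 was highest and vehicle pool 4 lowest among the GFP+ arrays. In each kind of pool, 1 of 4 GFP+ arrays was under the negative control median for Ltf. With it raised to that median, Ltf was at least 154-fold lower in GFP+ cells of odor pools and at least 134-fold lower in those of vehicle pools, with fitted differences of -7.30 ± 0.41 and -7.18 ± 0.41 (SE, limma adjusted p = 1.06e-09 and 1.31e-09). Camp, the cathelicidin precursor, read 5.44, 5.78, 5.47 and 5.56 in GFP+ cells of odor pools, against 11.90, 13.22, 12.53 and 13.04 in GFP- cells. In the vehicle pools, values were 5.003, 5.17, 5.53 and 5.06 in GFP+ cells, against 12.89, 13.58, 12.74 and 12.74 in GFP- cells. Every GFP+ value of Camp lay under the negative control median of its own array, so its level there is only bounded. With the GFP+ level set to that median, Camp was at least 79.6-fold lower in GFP+ cells of odor pools and at least 86.4-fold lower in those of vehicle pools; the fitted differences were -7.11 ± 0.25 and -7.80 ± 0.25 (SE, limma adjusted p = 8.48e-12 and 2.81e-12).

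Mmp8, neutrophil collagenase, and Mmp9, gelatinase B, encode matrix metalloproteinases of neutrophil granules. Mmp8 read 6.29, 6.95, 6.39 and 6.80 in GFP+ cells of odor pools, against 12.75, 14.65, 14.19 and 14.88 in GFP- cells. Vehicle pools 1 to 4 had 6.27, 6.29, 6.64 and 5.83 in GFP+ cells, against 13.52, 14.89, 13.69 and 14.09 in GFP- cells. The GFP- array of pool 1 was the lowest with either stimulus. Mmp9 read 5.38, 5.50, 5.17 and 5.20 in GFP+ cells of odor pools, against 10.93, 13.16, 12.53 and 12.92 in GFP- cells. Its vehicle pools gave 5.21, 5.27, 5.27 and 5.38 in GFP+ cells, against 11.75, 13.47, 12.25 and 12.90 in GFP- cells. All GFP+ values of Mmp9 were under the negative control median, while its GFP- values spread over more than those of most of the other genes. Mmp8 was under the negative control median on 1 of 4 GFP+ arrays of odor pools and on 2 of 4 of vehicle pools, where its GFP+ mean of 6.26 was also under the mean of those medians, 6.55. With these arrays raised to the median, Mmp8 was at least 180-fold lower in GFP+ cells of odor pools and at least 169-fold lower in those of vehicle pools, with fitted differences of -7.51 ± 0.38 and -7.79 ± 0.38 (SE, limma adjusted p = 2.70e-10 and 1.80e-10). With its GFP+ level set to that median, Mmp9 was at least 65.3-fold lower in GFP+ cells of odor pools and at least 65.7-fold lower in those of vehicle pools. Its fitted differences were -7.08 ± 0.39 and -7.31 ± 0.39 (SE, limma adjusted p = 8.02e-10 and 5.62e-10).

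Csf3r, the surface receptor of the set, read 5.77, 5.73, 5.54 and 5.76 in GFP+ cells of odor pools, against 9.69, 11.77, 11.57 and 11.58 in GFP- cells. In the vehicle pools, values were 5.11, 5.85, 5.81 and 5.16 in GFP+ cells, against 10.20, 12.06, 11.21 and 11.48 in GFP- cells. The GFP+ values were all under the negative control median, and the GFP- array of odor pool 1 lay well below the other arrays of its group. Csf3r on that GFP- array, at 9.69, was also under the 95th percentile of the array's negative controls, 10.07. With the GFP+ level set to the negative control median, Csf3r was at least 27.8-fold lower in GFP+ cells of odor pools and at least 25.7-fold lower in those of vehicle pools. The fitted differences were -5.45 ± 0.41 and -5.76 ± 0.41 (SE, limma adjusted p = 2.45e-08 and 1.28e-08).

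**Figure D1:**
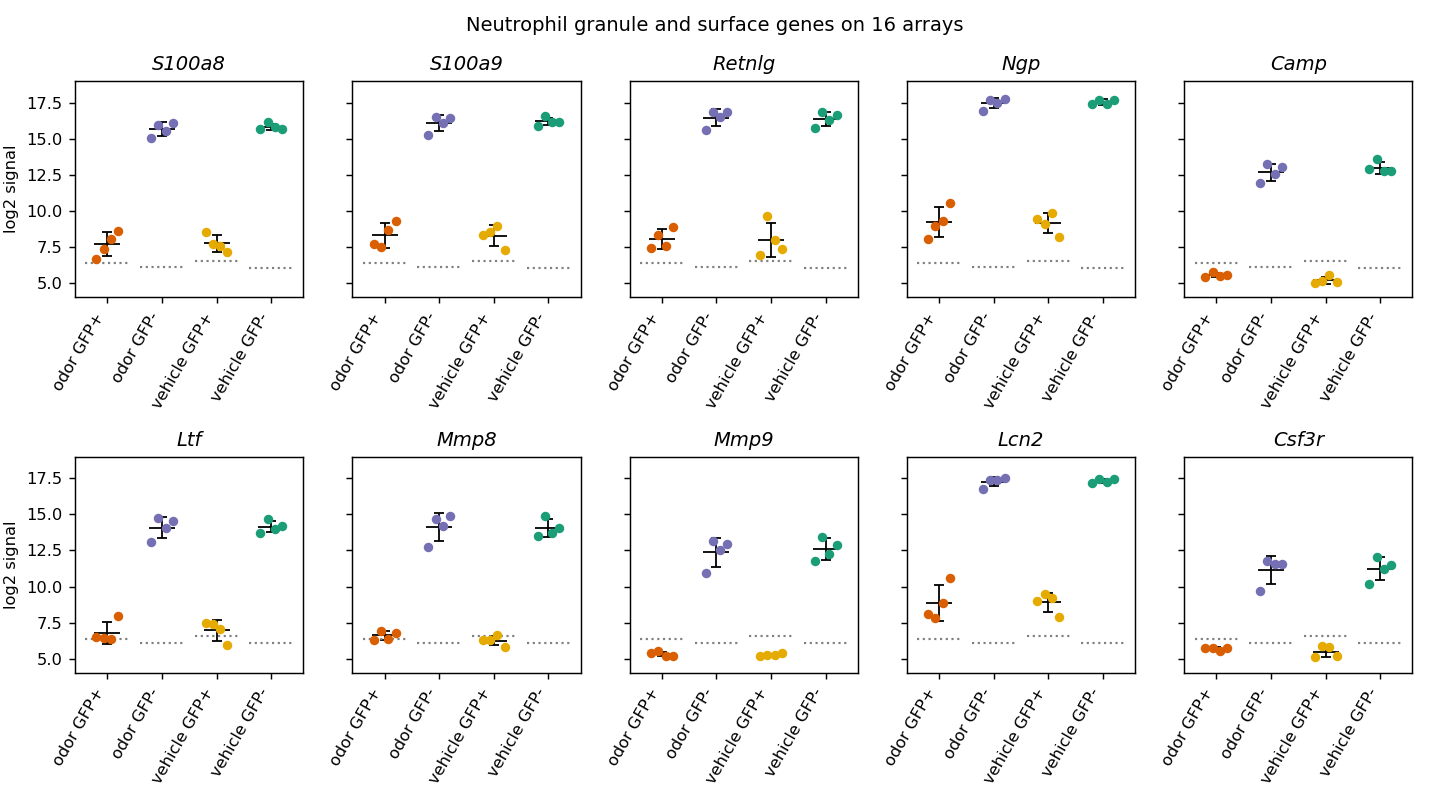
Log2 signal of each of the 10 genes on the 16 arrays, by group, with points for arrays, bars for the group mean ± SD and a dotted line for the mean negative control median of the group. For all 10 genes every GFP+ array lies below every GFP- array, and odor and vehicle arrays overlap within a fraction.

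Odor and vehicle pools were compared within each fraction, the contrast the stimulus addresses. The limma fit took 1 spread for each gene from all 4 groups. So p-values and intervals of either fraction also carry the spread of the other. Mmp9 had an SD of 0.16 (odor) and 0.07 (vehicle) in GFP+ against 1.00 and 0.75 in GFP- cells. For Lcn2 the GFP+ SD was the larger, 1.24 and 0.69 against 0.32 and 0.14. With only the compared groups in the fit, 0 of 10 genes passed in either fraction. Unadjusted p-values were not counted in that fit. In GFP+ cells 0 of 10 genes passed (limma adjusted p under 0.05), where 0.0766% of all probe sets did, and 0 of 10 had an unadjusted p under 0.05, as 1587 of all probe sets did. In GFP- cells 0 of 10 passed, where 0.0495% of all did, and 0 of 10 had an unadjusted p under 0.05, as 580 of all did. The arrays of odor and vehicle pools overlapped for all 10 genes in both fractions; over all probe sets, odor arrays lay wholly below vehicle arrays for 1.1% and wholly above for 1.75% in GFP+ cells, and for 1.37% and 1.24% in GFP- cells. Odor minus vehicle differences ran from -0.17 (Ltf) to 0.37 (Camp) in GFP+ cells and from -0.31 (Camp) to 0.08 (Retnlg) in GFP- cells, and their 95% intervals reached from -1.04 to 1.15 and from -1.03 to 1.09. Camp was the gene nearest to a difference: 0.37 ± 0.25 in GFP+ cells, where all its values are under the negative control median, and -0.31 ± 0.25 in GFP- cells (SE, limma adjusted p 0.791 in GFP+ cells). The difference between the odor and vehicle sorts was 0.69 ± 0.35 for Camp (SE, 95% interval -0.05 to 1.42, limma adjusted p = 0.999), and 0 of 10 genes passed that test, where 0.063% of all did and 1033 had an unadjusted p under 0.05. The signs of these small differences changed with the scaling or the arrays used for 7 of the 10 genes in GFP+ cells and 9 of 10 in GFP- cells, so no direction is read from them.

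**Figure D2:**
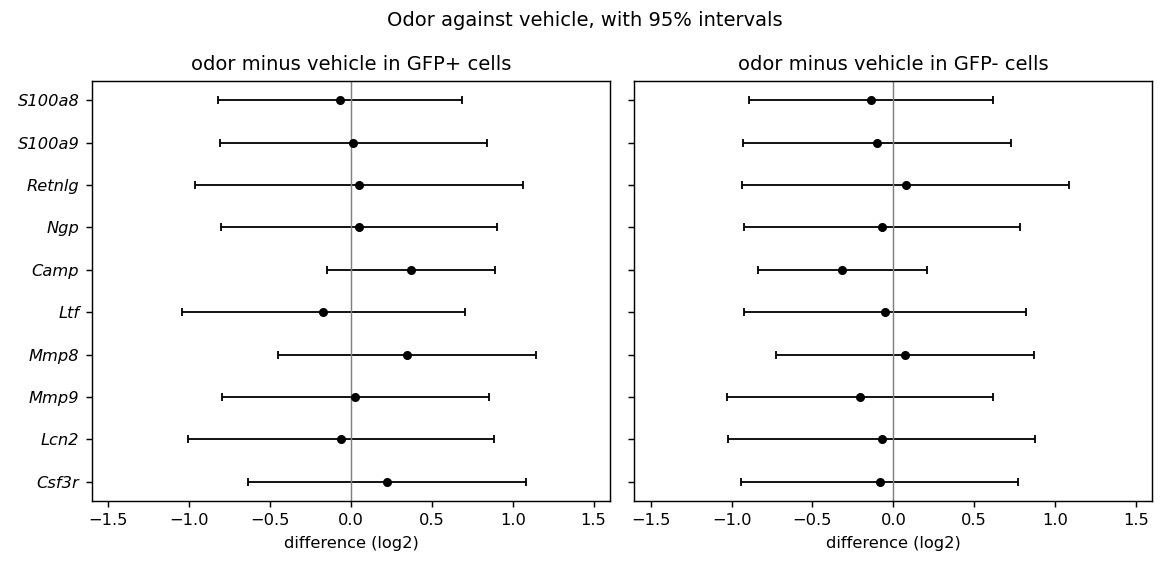
Odor minus vehicle difference (log2) of each of the 10 genes in GFP+ and in GFP- cells, with 95% intervals from the limma fit. All intervals include 0, and the widest reach about 1 log2 to either side. A gene's interval has the same width in both fractions, because its spread is taken over all 4 groups.

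Within the GFP- fraction, levels of the 10 genes varied together between pools. Replicate 1 had the lowest GFP- value for 10 of 10 genes in odor pools, where 26.6% of all probe sets were lowest in it, and for 9 of 10 in vehicle pools, against 22.5%. For 9 of 10 genes it was lowest in both, against 7.90% of all probe sets. Camp, the exception, was lowest in vehicle replicates 3 and 4, which lay close together. Some of the vehicle calls rest on small gaps. Ngp read 17.3772 in replicate 1 and 17.3777 in replicate 3, Lcn2 17.21 and 17.24 in the same replicates, and S100a8 15.64 in replicate 1 and 15.66 in replicate 4. Because the 10 genes varied together, they are not separate observations of a replicate pattern. The mean of the 10 genes was below its group mean by 0.94 in odor replicate 1 (deviation -0.94) and by 0.43 in vehicle replicate 1 (deviation -0.43). Replicate 2 was highest for 5 of 10 genes in odor pools, against 21.1% of all probe sets, and for 10 of 10 in vehicle pools, against 22.9%. Replicate 4 was highest for the other 5 in odor pools, against 23.3%. This was not tested, and the labels used here do not say whether pools of the same number share a day.

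Genes differed in how far they moved. The SD of deviations from the group mean over the 8 GFP- arrays was 0.23 for Lcn2, 0.27 for Ngp and 0.34 for S100a8, and 0.74 for Mmp8, 0.82 for Mmp9 and 0.82 for Csf3r. In odor replicate 1 the deviation was -0.47 for Lcn2 and -0.52 for Ngp, against -1.46 for Mmp9 and -1.47 for Csf3r. Lcn2 and Ngp read up to 17.51 and 17.75 in GFP- cells, near the highest value of the table, 18.85; the part of this in their small spread was not tested. Each gene's deviations correlated with the mean of the other 9 at r from 0.891 (Camp) to 0.988 (Ltf) over the 8 GFP- arrays, which share pools and scaling.

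**Figure D3:**
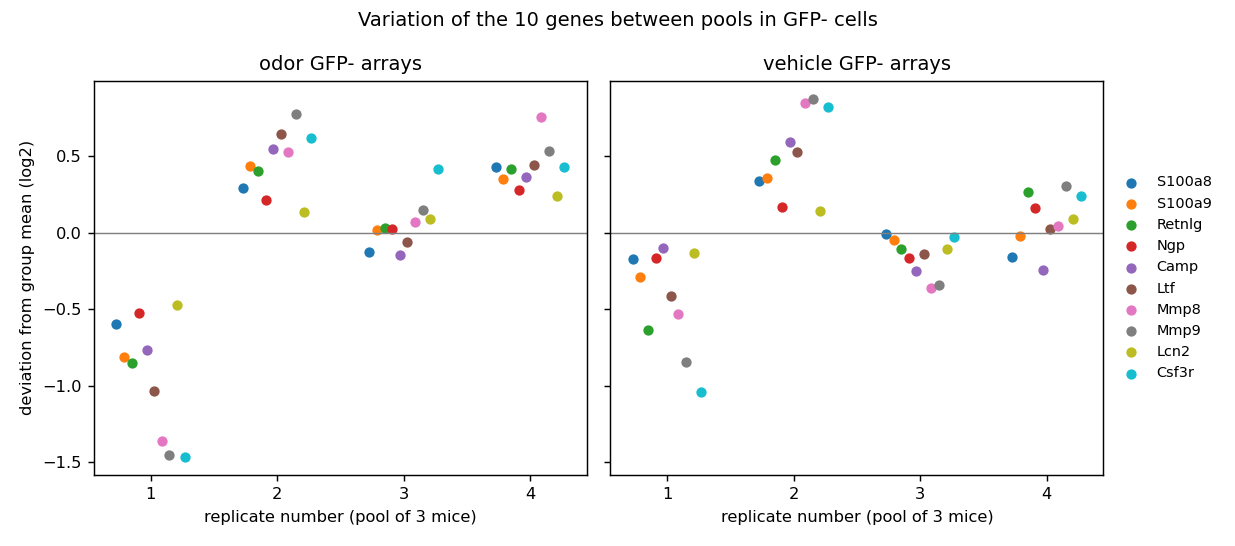
Deviation of each of the 10 genes from its group mean (log2) on the 8 GFP- arrays, by replicate and stimulus. Replicate 1 lies lowest for nearly all genes with either stimulus, and farthest below the group mean for Csf3r and Mmp9. Its deviation is smallest for Lcn2 and Ngp in odor pools, and for Camp and Lcn2 in vehicle pools.

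The 15 other gene lists on the same arrays deviated in GFP- replicate 1 as follows, and their part in the result was not tested. Other specific, gelatinase and secretory granule genes had a mean deviation of -0.96 in odor and -0.37 in vehicle replicate 1. Surface and chemotactic receptors of neutrophils had -1.04 and -0.65, and cytosolic NADPH oxidase subunits -1.05 and -0.41. Azurophil granule genes had -0.64 in odor but 0.35 in vehicle replicate 1, and the erythroid markers -0.80 and 0.21. Transcription factors of granulopoiesis had -0.41 and -0.15, ligands that draw or sustain neutrophils -0.46 and -0.42, and receptors and inhibitors of the encoded proteins -0.24 and -0.086. Monocyte and macrophage markers had -0.51 and -0.29, B lineage markers -0.31 and 0.14, T and NK cell markers -0.40 and -0.022, and progenitor markers -0.30 and -0.043. Eosinophil, basophil and mast cell markers had 0.060 and 0.24. Of the cells of the mucosa itself, sustentacular and Bowman's gland markers had -0.20 and -0.41, the second close to the -0.43 of the 10 genes, and mature olfactory neuron markers 0.074 and 0.028.

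Further genes of neutrophils were lower in GFP+ cells. Of 12 other specific, gelatinase and secretory granule genes on the array, 12 passed as lower in odor pools and 12 in vehicle pools, with a median difference of -5.18 and -5.07. Chil3, a chitinase-like lectin, differed by -7.73 and -7.97, Hp, haptoglobin, by -7.17 and -7.64, and Anxa1, annexin A1, by -6.87 and -6.61. Of 18 surface and chemotactic receptors, 18 passed as lower in odor pools and 17 in vehicle pools, where Cxcr1, named after its value was seen, did not pass, with medians of -3.90 and -3.75. Among them were the integrin subunit gene Itgb2l at -6.58 and -6.69, and the receptor genes Mrgpra2b at -6.58 and -6.98 and Mrgpra2a at -5.92 and -6.34. All 3 cytosolic NADPH oxidase genes passed: Rac2 at -6.50 and -7.09, Ncf1 at -6.42 and -6.45, and Ncf4 at -5.36 and -5.13.

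Of the 6 azurophil granule genes, 5 passed as lower in each kind of pool, with medians of -3.30 and -3.08. Mpo, myeloperoxidase, differed by -6.14 in odor pools and -6.14 in vehicle pools, Elane, neutrophil elastase, by -5.90 and -5.96, and Ctsg, cathepsin G, by -3.33 and -3.29. Prss57, named after its value was seen, did not pass at 0.04 ± 0.26 and -0.24 ± 0.26 (SE, limma adjusted p = 0.929 and 0.554). Of 6 transcription factors of granulopoiesis, 4 passed as lower in each, but 3 in odor pools under each of the 3 other scalings tried. Spi1, which encodes PU.1, differed by -5.79 and -5.38, Cebpd by -2.27 and -2.58, and Cebpe, the C/EBP factor of specific granule genes, by -1.77 and -1.80. Cebpb and Gfi1, named after their values were seen, did not pass.

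Of 11 ligands that draw or sustain neutrophils, 4 passed as lower in each kind of pool, with median differences of -0.02 and -0.10. With array medians set equal, another 6 in odor and 5 in vehicle pools passed as higher. Il1b, interleukin 1 beta, differed by -4.90 in odor and -5.10 in vehicle pools, the chemokine gene Cxcl2 by -2.54 and -2.99, and Ccl3 by -2.18 and -2.03. Csf3, the ligand of Csf3r, named after its value was seen, did not pass, at 0.37 ± 0.17 and 0.33 ± 0.17 (SE, limma adjusted p = 0.127 and 0.175). Of 8 receptors and inhibitors of the proteins the 10 genes encode, Cd33 (-3.73 and -3.37) and Tlr4 (-1.97 and -1.62), receptors reported to bind calprotectin subunits, passed as lower in both. Ager (0.48 ± 0.14) and Lrp2 (0.54 ± 0.19), named after their values were seen, passed as higher in odor pools, but 4 genes of this list passed as higher with array medians set equal and 0 with negative control medians set equal. The metalloproteinase inhibitor genes Timp1, Timp2 and Timp3, named after their values were seen, did not pass in either. No gene of any list passed in the odor comparisons.

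Markers of other cell types moved with the sort as well, and their part in the result was not tested. Of 10 monocyte and macrophage markers, 5 passed as lower in each kind of pool: Ly6c2 differed by -8.39 and -9.19, the chemokine receptor gene Ccr2 by -6.02 and -6.77, and Cd14 by -2.44 and -2.18. The tissue macrophage genes C1qa, C1qb, C1qc, Mrc1 and Ms4a7, named after their values were seen, were the 5 that did not pass. With array medians set equal, 5 of the 10 passed as lower and 1 as higher in odor pools, and 4 and 1 in vehicle pools. Quantile normalization gave 5 lower in odor pools, and 4 lower and 1 higher in vehicle pools. With negative control medians set equal, 7 and 5 passed as lower. The summed log2 level of the monocyte and macrophage list was 11.13 to 11.45 in GFP+ and 14.34 to 15.45 in GFP- cells of odor pools, and 11.36 to 11.94 in GFP+ and 14.54 to 15.50 in GFP- cells of vehicle pools. For the 10 genes the summed log2 level was 10.37 to 12.29 in GFP+ and 18.56 to 19.54 in GFP- cells of odor pools, and 10.26 to 11.57 in GFP+ and 19.01 to 19.56 in GFP- cells of vehicle pools. Mature olfactory neuron markers, with summed levels of 20.42 to 20.61 over all groups, passed as higher for 1 of 8 in each kind of pool. With array medians set equal 8 of 8 passed as higher, and with negative control medians set equal 0 of 8 did and the 1 gene, Ano2, turned to -0.14 in vehicle pools.

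**Figure D4:**
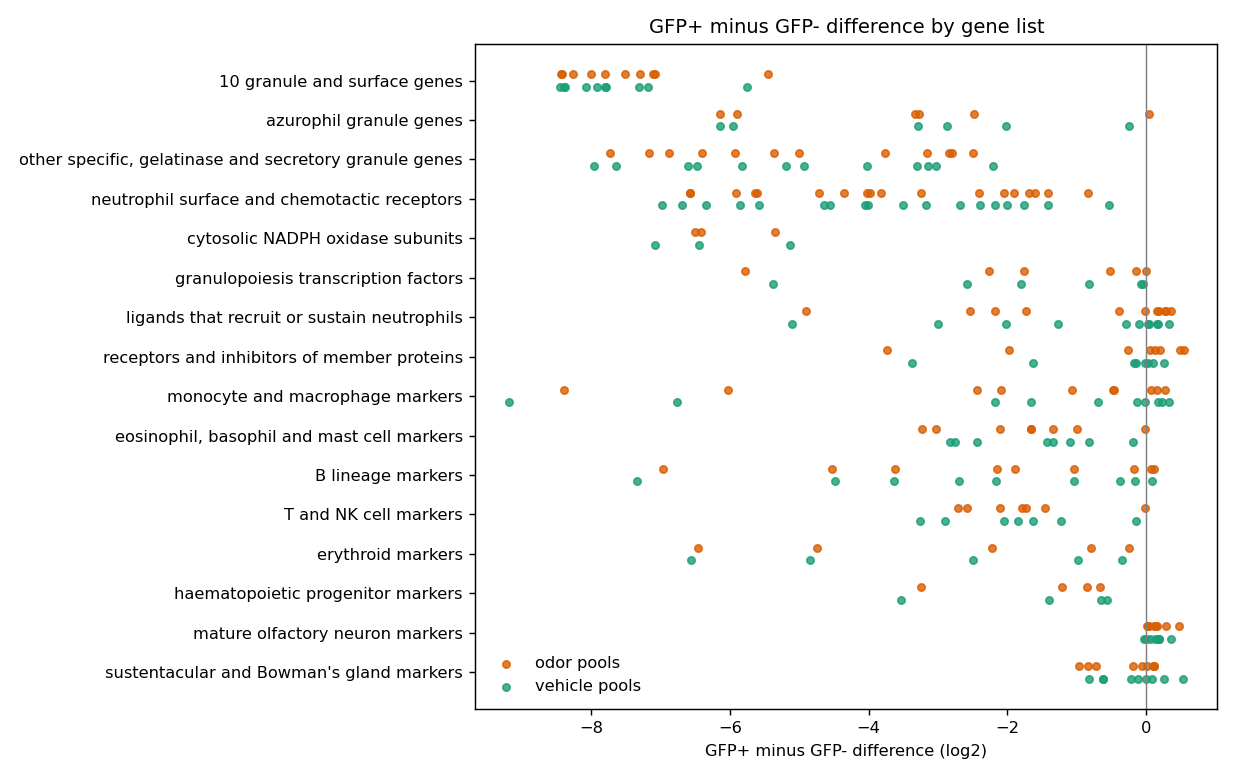
GFP+ minus GFP- difference (log2) of each gene, by gene list, in odor pools and in vehicle pools; a point is a gene. The 10 granule and surface genes lie between -8.45 and -5.45, neutrophil lists spread from -7.97 towards 0, and mature neuron markers lie near 0.

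Genes with a pattern most like the mean of the 10 genes were found by Pearson correlation, as a description. Over all 16 arrays, which fall into the 2 fractions, the closest were Ly6e, Cd24a and Serpinb1a (r = 0.997 each), then Sp100, Ly6c1, Chil3, Chil4 and Cd52 (r = 0.996 each). Over the deviations on the 8 GFP- arrays, which leave the fractions out, the closest were H2-T23 (r = 0.993), Anxa1, Pilra, Cers6, Stxbp2 and Apobec1, then Moxd2 (r = 0.989) and Hp (r = 0.987). Moxd2 had mean levels of only 6.55 in GFP- cells of odor pools and 6.15 in those of vehicle pools, near the negative control median.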

How the data were processed

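The authors deposited log2 signals per probe set, made with Affymetrix Expression Console per the submitters' processing notes; version, algorithm and genome build: not given in the sources used here. After removal of control entries, 22206 of 28846 features remained and were tested without further scaling. Group means of all 16 arrays were fitted with limma 3.58.1 in R 4.3.3 (lmFit, eBayes), with two-sided tests and Benjamini-Hochberg adjustment (threshold 0.05). On simulated data of 22206 probe sets for the vehicle sort, 81 of 100 falls of 1 log2 and 98 of 100 of 2 log2 were recovered. There were 9 false calls among the probe sets left unchanged. The simulated noise was independent, with 1 SD per probe set in all groups. It therefore does not cover variation shared within pools or a spread that differs between fractions. Replicates are pools of 3 mice, and 4 arrays a group limit the precision.

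The 10 genes and all lists were chosen with earlier results of these data known; all 10 genes are named in every comparison, and of each other list up to 3 genes with the largest vehicle sort difference. Of 143 list genes, 124 were on the array and the others were not analysed here. Levels under the negative control median of an array were raised to it for "at least" folds. Such a fold is a bound against that median only and carries no sampling error. Many negative control entries lie above the median, and their 95th percentile was 10.09 to 11.63 on GFP+ arrays. Against that percentile the folds would be smaller.

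GFP+ and GFP- arrays of a pool come from the same mice; their deviations from group means correlated with r from 0.0119 to 0.224 over probe sets. Between odor and vehicle arrays of one replicate number, r was at least 0.186 and at most 0.290 for the GFP- fraction. For the GFP+ fraction r was 0.0311 at the lowest and 0.256 at the highest. Whether such arrays are paired was not tested. The main fit is unpaired, and a block by replicate number is among the alternatives. A summed level is log2 of the sum of linear signals. The 24 alternatives covered scaling, a dim filter, blocks, samples in the fit, moderation and left-out arrays.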

Additional observations from a re-analysis of the deposited data

Results flagged for a closer look

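Among 40 sets of 4 arrays (10 genes in 4 groups), 2 held an array far from the other 3; chance gives about 1 in 20 sets. Ltf read 7.93 in GFP+ cells of odor pool 4, above the other arrays of its group. Without that array its GFP+ minus GFP- difference in odor pools was -7.68, in place of -7.30, and still passed. Csf3r read 9.69 in GFP- cells of odor pool 1, below the other arrays of its group and under the 95th percentile of that array's negative controls, 10.07. Without that array its difference was -5.94, in place of -5.45, and still passed.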

How the results depend on the processing

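In both sorts 10 of 10 genes passed as lower under every alternative run, the replicate block included (10 of 10 in each sort), with differences from -9.01 to -5.12 in odor pools and from -8.96 to -5.41 in vehicle pools. In the odor comparisons 0 of 10 passed under any of them, the replicate block included. The median difference of all probe sets was 0.46 in both sorts with array medians set equal, and -0.15 (odor) and -0.38 (vehicle) with negative control medians set equal; the median of the 10 genes was then -7.33 and -7.51, and -7.94 and -8.35. That last scaling also moved the median odor minus vehicle difference of all probe sets in GFP+ cells to 0.21, from 0.012. Over all probe sets the sorts gave 2649 lower and 2518 higher (odor) and 2617 and 2074 (vehicle), against 2009 and 13098 and 2008 and 13003 with array medians, 2521 and 3594 and 2501 and 3665 with quantiles, and 2737 and 342 and 4206 and 279 with negative controls. Signs of the odor differences were unstable for most genes. In GFP+ cells 22 of 160 changed, in GFP- cells 22 of 160, and for the difference between sorts 44 of 240. None was past the threshold (lowest limma adjusted p 0.491, 0.927 and 0.736), and the cause was not tested. Camp kept its sign throughout, with 0.30 to 0.57 in GFP+ cells, where it is under the negative control median. It had -0.50 to -0.059 in GFP- cells and 0.43 to 0.90 for the difference between sorts. With array medians set equal, the difference between sorts was -0.010 for Lcn2. With quantile normalization, Mmp9 in GFP+ cells was -0.056. With negative control medians set equal, GFP+ cells gave 0.13 for S100a8, 0.026 for Ltf and 0.13 for Lcn2, and the difference between sorts was 0.18 for Retnlg and 0.091 for Ltf. Without both arrays of vehicle pool 2, chosen after seeing the data, Lcn2 was 0.13 in GFP+ cells; S100a9 0.019, Ltf 0.12, Mmp9 0.087 and Csf3r 0.19 in GFP- cells; and the difference between sorts was -0.051 for S100a8, 0.37 for Retnlg and -0.065 for Mmp9. Leaving out each array in turn gave, in GFP+ cells, S100a8 -0.38 to 0.26, S100a9 -0.32 to 0.27, Retnlg -0.29 to 0.61, Ngp -0.40 to 0.43, Mmp9 -0.036 to 0.076 and Lcn2 -0.64 to 0.28; in GFP- cells, S100a8 -0.28 to 0.062, S100a9 -0.25 to 0.17, Retnlg -0.14 to 0.36, Ngp -0.16 to 0.10, Ltf -0.27 to 0.29, Mmp8 -0.18 to 0.53, Mmp9 -0.49 to 0.28, Lcn2 -0.15 to 0.084 and Csf3r -0.43 to 0.40; and for the difference between sorts, S100a8 -0.24 to 0.40, S100a9 -0.22 to 0.37, Retnlg -0.37 to 0.53, Ngp -0.33 to 0.50, Ltf -0.50 to 0.098, Mmp8 -0.18 to 0.53, Mmp9 -0.25 to 0.51, Lcn2 -0.57 to 0.36 and Csf3r -0.18 to 0.66. The 15 other gene lists were also run under the 3 scalings, chosen after seeing the data, and among genes past the threshold the sign of 1 changed, Ano2 in vehicle pools (-0.14). In GFP+ cells Camp, Mmp9 and Csf3r had only bounds, Mmp8 was under the negative control median on 1 odor and 2 vehicle arrays, and Ltf on 1 of each.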

Other observations

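Several markers of other blood lineages were lower in GFP+ cells. Of 9 B lineage markers, 6 passed as lower in odor pools and 6 in vehicle pools: Jchain, the joining chain of polymeric immunoglobulins, differed by -6.97 and -7.35, Cd79a by -4.52 and -4.48, and Cd79b by -3.62 and -3.63. With array medians set equal, 1 of the 9 also passed as higher in each. With negative control medians set equal, 6 and 7 passed as lower. Of 7 T and NK cell markers, 6 passed in each, with Ncr1 at -2.71 and -3.25, Nkg7 at -2.59 and -2.90 and Cd3e at -1.73 and -2.05. Of 8 eosinophil, basophil and mast cell markers, 7 passed in each, with Mcpt8 at -3.23 and -2.82, Cpa3 at -3.02 and -2.75 and Prg2 at -2.11 and -2.43. With array medians set equal, 7 and 6 of these 8 passed.

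Markers of immature blood cells were among the lower ones. Of 5 erythroid markers, 4 passed as lower in each kind of pool: Car1, carbonic anhydrase 1, differed by -6.46 and -6.56, Rhag by -4.74 and -4.85, and Alas2, the erythroid enzyme of haem synthesis, by -2.23 and -2.50. With array medians set equal 3 and 4 of the 5 passed, and with negative control medians set equal 4 and 5. All 4 haematopoietic progenitor markers passed in each, with Kit, the stem cell factor receptor, at -3.24 and -3.54; with array medians set equal or quantile normalization, 3 and 2 of the 4 passed. Of 9 sustentacular and Bowman's gland markers, 2 passed as lower in odor pools and 1 in vehicle pools, with median differences of -0.06 and -0.11; with array medians set equal 0 passed as lower in either, and with negative control medians set equal 3 did in each.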
